A study of Mus musculus with 4 samples.

Results

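The cochleovestibular ganglion (CVG) holds the first sensory neurons of the inner ear and later separates into the spiral (auditory) and vestibular ganglia. The transcriptome described here is that of a single library, the control at embryonic day 11.5 (E11.5), 1 of the 4 mouse libraries of the series. It was chosen by its genotype label, which reads control, and the 3 other libraries, labelled Isl1CKO, Pou4f1KO and DKO, were not used. Ganglia were dissected and snap-frozen, and strand-specific RNA sequencing was done on total RNA. The labels name the cell type as CVG neurons, but they describe no sort of the cells, so a library from dissected tissue can hold RNA of any cell in the dissected piece. The strain, the alleles carried by the control and the number of embryos in the library are not given in the sources used here.

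CVG neurons delaminate from the ventral wall of the otic vesicle as precursors, divide, and then leave the cell cycle and grow axons toward the sensory epithelia and the hindbrain. The basic helix-loop-helix (bHLH) factor NEUROG1 starts this programme and NEUROD1 carries it on, and the homeodomain factors ISL1 and POU4F1 act in the postmitotic neurons. The neurons later depend on the neurotrophins BDNF and NT-3 through the receptor kinases TrkB (Ntrk2) and TrkC (Ntrk3), and the glia that wrap them come from the neural crest.

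Levels are in TPM, a measure of transcript abundance that corrects for gene length and for the library's total, so that genes can be compared within the library. Of 25239 gene symbols, 14412 (57.1%) reached 1 TPM, the level used below to count a gene as detected, and 6440 (25.5%) were listed at 0. Each count of detected genes below is to be read beside that 57.1%. Levels of 10 TPM or more were reached by 10186 symbols (40.4%), of 100 TPM or more by 2030 (8.04%) and of 1000 TPM or more by 111 (0.440%). The median over all symbols was 2.98 TPM. The 10 highest genes held 5.60% of all TPM and the 1000 highest held 53.4%. About 16.6 gigabases were aligned, and at 1 TPM a gene was covered to a mean depth of 5.93 reads. There was no replicate, so no value has an error and no test was run. An order of neighbouring levels is that of this library only. In bulk RNA, few cells with much of a transcript and many cells with little of it cannot be told apart.

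All 7 markers that define the ganglion neurons were present at 10 TPM or more. Tubb3, the neuronal beta-tubulin, stood at 2636 TPM and rank 19 of all symbols (mm10 chromosome 8, 123411553 to 123422015, plus strand). Neurod1 stood at 641 TPM and rank 193 (chromosome 2, 79452639 to 79456636, minus strand). Isl1 stood at 450 TPM and rank 307 (chromosome 13, 116298270 to 116309688, minus strand). These levels put a pair of neuronal transcription factors among the most abundant transcripts of the library. Nhlh1, a bHLH factor of newly formed neurons, followed at 327 TPM and rank 462 (chromosome 1, 172052292 to 172057596, minus strand). Pou4f1 (BRN3A) was lower, at 146 TPM and rank 1256 (chromosome 14, 104462325 to 104467999, minus strand). The neurotrophin receptors were the lowest of the 7, with Ntrk2 at 72.6 TPM (rank 2944) and Ntrk3 at 14.7 TPM (rank 9078). The level of Ntrk3 is the least certain: the deposited mean read depth over the gene was 5.12, which is 5.88% of the depth that its abundance implies. For Ntrk2 this share was 59.8%, and for the 5 other markers the deposited depth and the abundance matched. The cause of the mismatch was not tested. A share under 50% was seen in 994 of the 14453 rows at or above 1 TPM (6.88%), while the depth matched the abundance within a tolerance of 0.001 in 60.4% of rows above 0.1 FPKM. The share is given below beside the named genes at or above 1 TPM whose share was under 50%.

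**Figure D1:**
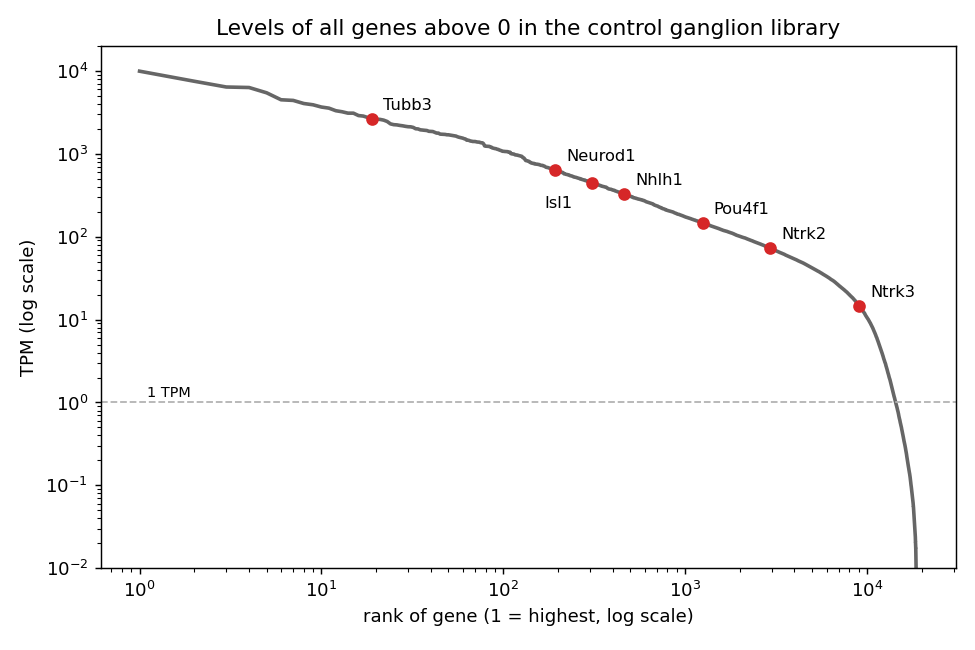
Level in TPM (log axis) of every gene above 0 in the control library, against its rank (log axis, 1 is the highest), with the 7 markers of the ganglion neurons as red points and 1 TPM as a dashed line. Tubb3 lies near the top of the curve at 2636 TPM and Ntrk3 lowest of the 7 at 14.7 TPM, and all 7 lie above the line.

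To show the base composition of the starts of these genes, 5 promoters are given here as the 250 bases before the transcription start, 5′ to 3′ on the gene's own strand, from RefSeq on GRCm38.p6 (the build of mm10). Capitals mark each CpG dinucleotide. The neuronal genes are Neurod1 (chr2:79456637-79456886), Isl1 (chr13:116309689-116309938), Pou4f1 (chr14:104468000-104468249) and Tubb3 (chr8:123411303-123411552). Hbb-y (chr7:103853208-103853457), an embryonic beta-like globin of primitive red cells, stood at 2850 TPM, close to Tubb3, and is set beside them as a single gene of low CpG content.
Neurod1: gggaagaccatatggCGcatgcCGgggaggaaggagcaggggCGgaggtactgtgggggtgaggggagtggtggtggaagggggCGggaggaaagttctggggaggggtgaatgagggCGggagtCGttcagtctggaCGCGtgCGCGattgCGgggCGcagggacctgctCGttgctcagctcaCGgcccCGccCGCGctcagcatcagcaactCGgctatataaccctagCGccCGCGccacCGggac
Isl1: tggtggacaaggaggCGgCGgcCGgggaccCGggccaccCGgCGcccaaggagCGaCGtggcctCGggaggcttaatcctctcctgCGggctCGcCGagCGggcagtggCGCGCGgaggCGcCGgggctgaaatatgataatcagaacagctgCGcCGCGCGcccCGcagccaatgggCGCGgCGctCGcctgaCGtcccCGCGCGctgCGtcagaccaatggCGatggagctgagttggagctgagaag
Pou4f1: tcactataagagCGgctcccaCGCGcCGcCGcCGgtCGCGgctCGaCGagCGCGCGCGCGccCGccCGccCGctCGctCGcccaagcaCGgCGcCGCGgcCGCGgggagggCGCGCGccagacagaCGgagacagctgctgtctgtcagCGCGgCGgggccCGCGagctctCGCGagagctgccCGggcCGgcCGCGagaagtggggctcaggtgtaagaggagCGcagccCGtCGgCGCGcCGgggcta
Tubb3: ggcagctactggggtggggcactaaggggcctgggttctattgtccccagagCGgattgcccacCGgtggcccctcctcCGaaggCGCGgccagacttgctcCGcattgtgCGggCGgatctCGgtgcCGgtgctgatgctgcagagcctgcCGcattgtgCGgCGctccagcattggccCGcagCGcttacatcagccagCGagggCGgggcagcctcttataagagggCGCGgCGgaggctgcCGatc
Hbb-y: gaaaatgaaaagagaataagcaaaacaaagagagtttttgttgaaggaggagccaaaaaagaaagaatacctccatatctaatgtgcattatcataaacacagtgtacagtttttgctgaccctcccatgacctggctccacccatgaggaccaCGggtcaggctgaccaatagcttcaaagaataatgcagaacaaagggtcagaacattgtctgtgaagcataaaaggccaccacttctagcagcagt
Pou4f1 held 47 CpG in this stretch at a GC content of 78.0%, Isl1 held 33 at 71.2%, Neurod1 held 22 at 67.6% and Tubb3 held 21 at 68.0%. Hbb-y held 1 CpG at 42.0%. The median over the 18594 promoters matched to a gene of the library was 9 CpG. Over genes at 100 to 1000 TPM it was 18 and over genes at 1000 TPM or more 19, so a high CpG count is not particular to the markers.

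Genes at the top of the library were mainly those of the cytoskeleton, of translation and of growing axons. The highest symbol was Eef1a1 (translation elongation) at 9918 TPM. Tuba1a, the alpha-tubulin of growing neurons, followed at 7496 TPM, and the actin-binding thymosins Tmsb10 and Tmsb4x stood at 6390 and 4482 TPM. Stmn1, which destabilises microtubules, stood at 5438 TPM and Tubb2b, another beta-tubulin, at 4040 TPM. The neurofilament subunits were unequal in this library: Nefm stood at 3553 TPM and Nefl at 1658 TPM, while Nefh, the heavy subunit of mature axons, stood at 6.03 TPM. Other intermediate filaments were Vim at 1777 TPM (progenitors, glia and mesenchyme), Ina at 686 TPM, Prph at 162 TPM and Nes at 160 TPM (progenitors), with the astrocyte gene Gfap at 0.0176 TPM. The 3 other stathmins were also high, with Stmn2 at 1380 TPM, Stmn3 at 565 TPM and Stmn4 at 414 TPM.

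All 23 listed microtubule and growth cone genes were detected, with a median of 210 TPM. The highest were Basp1 at 1855 TPM and Gap43 at 1669 TPM, both membrane proteins of growth cones, followed by Marcksl1 at 1353 TPM and Map1b at 792 TPM. Dcx, a microtubule protein of migrating neurons, stood at 334 TPM and Mapt (tau) at 358 TPM. The RNA-binding proteins of neurons were all detected as well (22 of 22, median 73.2 TPM), led by Elavl4 at 472 TPM and Elavl3 at 346 TPM, the HuD and HuC proteins of differentiating neurons. Both the neuronal splicing regulator Ptbp2 (234 TPM) and Ptbp1 (306 TPM), which is lost as neurons mature, were present.

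Transcription factors were read from family lists of 320 genes. Of these, 189 (59.1%) reached 1 TPM, a share close to the 57.1% of all symbols, 25 reached 100 TPM and 27 were listed at 0. The share detected differed widely between families, from 3 of 39 HOX genes to 12 of 14 PRDM genes. Beside Neurod1, Isl1 and Nhlh1, the high factors included Sox4 at 305 TPM, Sox11 at 301 TPM and Ebf1 at 285 TPM. Isl2, the close relative of Isl1, stood at 268 TPM. Irx1 at 254 TPM, Nhlh2 at 211 TPM, Ebf3 at 209 TPM, Shox2 at 205 TPM and Insm1 at 205 TPM followed, and of these INSM1 is known to promote the step from dividing precursor to neuron. Pou4f1 was the 17th of the listed factors. All 50 genes of the otic neurogenesis list, which overlaps the families, were detected, with a median of 44.0 TPM.

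**Figure D2:**
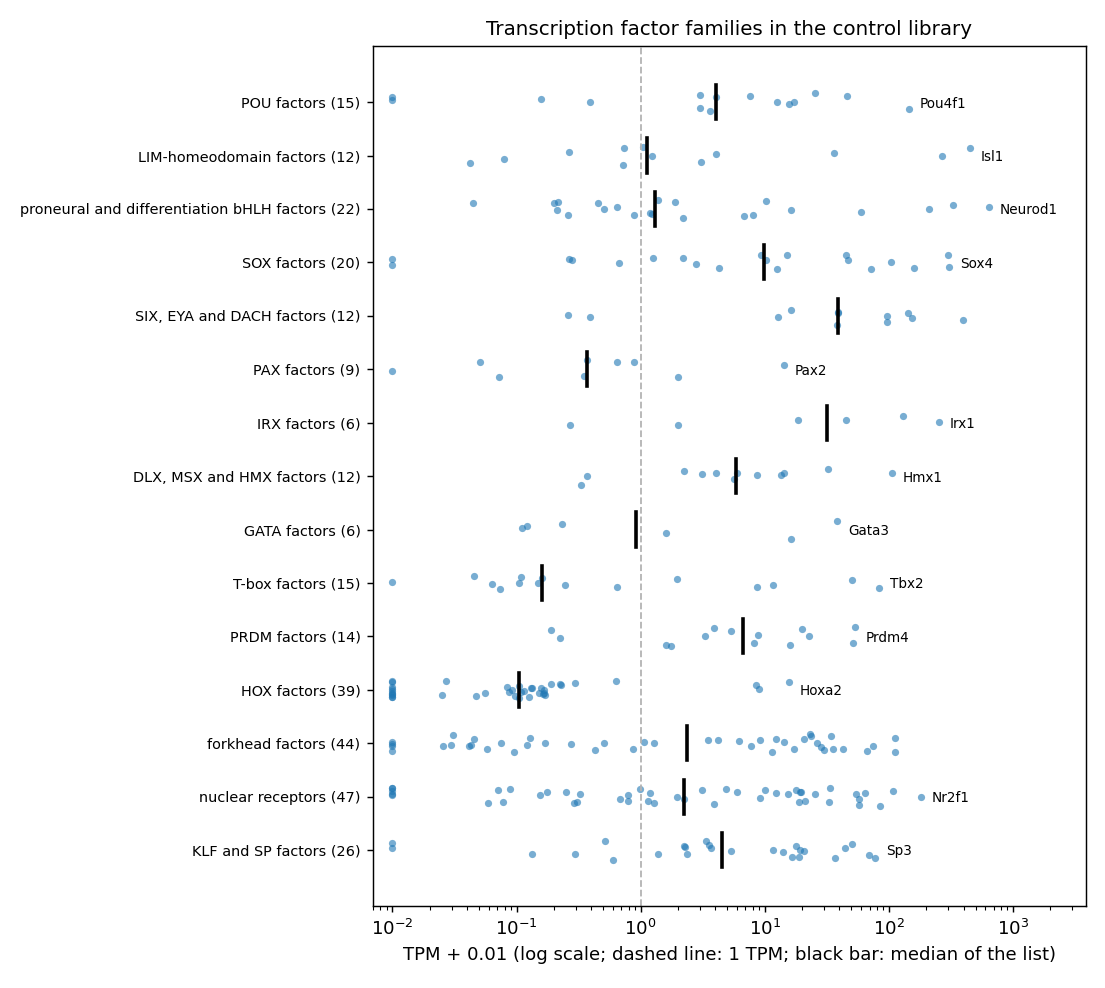
Level (TPM + 0.01, log axis) of each member of 15 transcription factor families in the control library, with the number of members found in brackets, the highest member named in most rows, the family median as a black bar and 1 TPM as a dashed line. The family of the EYA and DACH factors and that of Irx1 have the highest medians, 39.0 TPM in the former. HOX, PAX, T-box and GATA factors have medians below 1 TPM.

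In the bHLH family, 13 of 22 proneural and differentiation factors (59.1%) were detected, close to the 57.1% of all symbols. Neurog1, the factor that specifies the inner ear neuron lineage, stood at 16.3 TPM, well below its downstream gene Neurod1 at 641 TPM. Bhlhe22 stood at 59.2 TPM, while Neurog2, which serves other cranial ganglia, stood at 1.37 TPM. Their partners were higher: the E proteins Tcf3 and Tcf12 stood at 184 and 134 TPM, and the ID proteins that block them ranged from Id4 at 69.1 TPM to Id3 at 138 TPM. The hair cell factor of the same family, Atoh1, stood at 0.191 TPM.

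Among the 15 POU factors, 11 were detected. Pou4f1 was the highest, and its relatives stood at 15.7 TPM (Pou4f3, a hair cell factor) and 2.99 TPM (Pou4f2, a factor of retinal and some sensory neurons). Pou3f3 stood at 46.1 TPM and Pou3f4, a factor of the otic mesenchyme, at 17.3 TPM. In the LIM-homeodomain family, Isl1 and Isl2 were followed by Lmx1a at 36.5 TPM (otic epithelium), Lhx2 at 4.03 TPM, Lhx1 at 3.05 TPM, Lhx6 at 1.22 TPM and Lmx1b at 1.03 TPM. The 5 other LIM factors lay below 1 TPM, from Lhx9 at 0.728 TPM down to Lhx4 at 0.0323 TPM. The POU family thus had 1 member at 100 TPM or more, and the LIM family had both Islet genes there.

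The EYA and DACH factors and their homeodomain partners form a network of the cranial placodes, and this family had a median of 39.0 TPM, the highest of the 15 families plotted, and 10 of 12 were detected. Among them were Eya2 at 153 TPM (with 6.66% of the implied read depth), Eya1 at 142 TPM, Dach1 at 96.8 TPM, Six2 at 96.7 TPM, Eya3 at 39.3 TPM, Six4 at 38.7 TPM, Eya4 at 38.4 TPM, Six5 at 16.2 TPM and Dach2 at 12.9 TPM (44.8% of the implied depth). Six3 and Six6, factors of the eye and forebrain, stood at 0.380 and 0.248 TPM. Of the IRX factors, Irx1 and Irx2 (131 TPM) were followed by Irx3 at 45.4 TPM, Irx5 at 18.5 TPM, Irx6 at 1.98 TPM and Irx4 at 0.258 TPM. SOX factors were detected in 15 of 20 cases, and below Sox4 and Sox11 stood Sox10 at 160 TPM (neural crest and glia), Sox12 at 105 TPM and Sox2 at 72.2 TPM (otic and neural progenitors).

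PAX genes were low. Pax2, a factor of the otic vesicle, stood at 14.4 TPM and Pax3 at 1.995 TPM, and the 7 others lay below 1 TPM, among them Pax8 at 0.867 TPM and Pax6 at 0.641 TPM. HOX genes, which mark positions from the hindbrain to the tail, were detected in 3 of 39 cases, against 57.1% of all symbols. The 3 were Hoxa2 at 15.7 TPM, Hoxb3 at 9.01 TPM and Hoxb2 at 8.499 TPM, which belong to the front end of the HOX code. The next, Hoxa3, stood at 0.621 TPM. T-box factors were detected in 5 of 15 cases, led by Tbx2 at 83.4 TPM and Tbx3 at 50.7 TPM, with Tbx1 at 11.7 TPM. Of the GATA factors, Gata3, which acts in the otic vesicle and spiral ganglion, stood at 38.5 TPM, Gata2 at 16.3 TPM and the red cell factor Gata1 at 1.59 TPM, with Gata4, Gata5 and Gata6 below 0.3 TPM. Forkhead factors were detected in 24 of 44 cases, with Foxp4 at 111 TPM, and nuclear receptors were led by Nr2f1 at 181 TPM.

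Receptors for trophic factors were broadly present. All 10 neurotrophin receptors and co-receptors were detected, and the highest was Ngfr (p75, the shared low-affinity receptor) at 236 TPM. The receptor kinase Ntrk2 stood at 72.6 TPM and Ntrk3 at 14.7 TPM, with the depth mismatch given above. The adaptor Kidins220 stood at 152 TPM and the sorting receptor Sort1 at 83.1 TPM. Among receptors of the GDNF family, Gfra1 stood at 152 TPM, Gfra2 at 30.6 TPM, Ret (the shared signalling kinase) at 29.9 TPM, Gfra3 at 5.36 TPM and Gfra4 at 3.23 TPM, and Gfral was listed at 0. Cntfr, the receptor for ciliary neurotrophic factor, stood at 117 TPM, with its partners Il6st at 35.1 TPM and Lifr at 22.7 TPM (40.5% of the implied depth).

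Axon guidance receptors were nearly all detected. Plexins and neuropilins, which bind semaphorins, were present in 11 of 11 cases with a median of 52.8 TPM (30.1 TPM without genes that overlap another on the same strand), led by Nrp2 at 98.5 TPM and Nrp1 at 81.0 TPM. Eph receptors were present in 13 of 14 cases, led by Ephb2 at 78.0 TPM and Epha7 at 46.9 TPM. All 14 receptors for netrins and Slits were detected, but unevenly: Neo1 stood at 107 TPM, Unc5c at 69.3 TPM, Robo1 at 49.8 TPM and Robo2 at 39.2 TPM, while Dcc, the best known netrin receptor, stood at 2.59 TPM. Frizzled and WNT co-receptors were all detected (16 of 16, median 29.5 TPM), as were the 4 Notch receptors, led by Notch1 at 34.4 TPM.

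Families of transmitter receptors differed in the share detected, beside 57.1% of all symbols, and in the P2X and serotonin families 1 gene stood far above the rest. P2rx3, the ATP-gated channel of sensory neurons, stood at 291 TPM, while the next P2X receptor, P2rx4, stood at 5.56 TPM and P2rx2, with which P2RX3 forms channels, at 2.07 TPM. The 4 others were P2rx7 at 1.53 TPM and P2rx1, P2rx5 and P2rx6 below 0.4 TPM. Htr3a, the ion channel among serotonin receptors, stood at 33.6 TPM, with Htr7 next at 2.53 TPM, and 4 of 14 serotonin receptors were detected (2 at a threshold of 2 TPM). Of 16 nicotinic subunits 9 were detected. Chrnb2 at 75.4 TPM and Chrna4 at 62.8 TPM, which assemble with each other, were the highest, with Chrna3 at 29.9 TPM.

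Ionotropic glutamate receptors were detected in 15 of 18 cases at a median of 4.80 TPM. Grik5, a kainate subunit, was the highest at 56.9 TPM, followed by Gria4 at 24.3 TPM, Grik3 at 21.2 TPM, Grin3a at 19.9 TPM and Gria2 at 17.3 TPM. Grin1, the obligatory NMDA subunit, stood at 3.47 TPM. Only 2 of 8 metabotropic glutamate receptors reached 1 TPM, Grm2 at 21.1 TPM and Grm4 at 18.6 TPM (32.9% of the implied depth). GABA-A subunits were detected in 5 of 19 cases, among them Gabra3 at 12.4 TPM, Gabrb2 at 1.86 TPM and Gabra2 at 1.47 TPM. The GABA-B subunit Gabbr1 was higher, at 127 TPM, with Gabbr2 at 11.1 TPM.

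**Figure D3:**
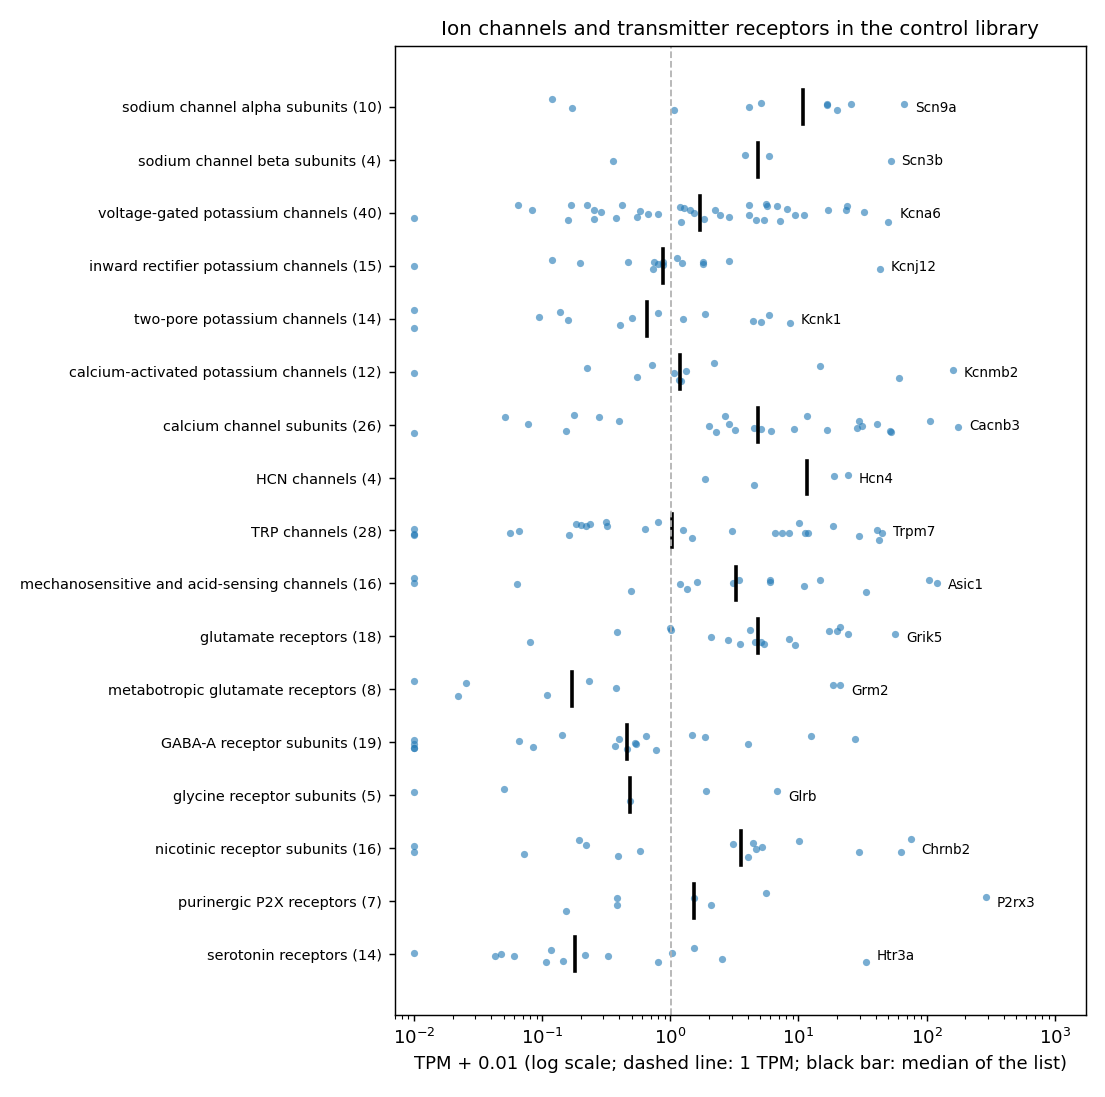
Level (TPM + 0.01, log axis) of each member of 17 families of ion channels and transmitter receptors in the control library, with the number of members found in brackets, the highest member named in most rows, the family median as a black bar and 1 TPM as a dashed line. P2rx3 at 291 TPM lies far to the right of the next P2X receptor, P2rx4 at 5.56 TPM.

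Voltage-gated sodium channel alpha subunits were detected in 8 of 10 cases, beside 57.1% of all symbols. Scn9a (Nav1.7), a channel of peripheral sensory neurons, was the highest at 66.8 TPM, followed by Scn3a at 25.8 TPM, and others were Scn8a at 16.8 TPM and Scn7a at 16.6 TPM. Scn10a stood at 5.07 TPM, Scn2a at 4.07 TPM and Scn1a at 1.05 TPM, and Scn4a and Scn11a lay below 0.2 TPM. Of the beta subunits, Scn3b stood at 52.3 TPM, Scn2b at 5.88 TPM and Scn4b at 0.346 TPM. The embryonic pair Scn3a and Scn3b was thus present beside Scn9a.

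Voltage-gated potassium channels were detected in 25 of 40 cases (62.5%, near the 57.1% of all symbols) at a median of 1.68 TPM. Kcna6 was the highest at 50.3 TPM, and others were Kcnh2 at 24.0 TPM, Kcnc1 at 23.3 TPM, and Kcnh1 at 17.1 TPM. Inward rectifiers had 1 high member, Kcnj12 (Kir2.2) at 43.0 TPM, with Kcnj11 next at 2.86 TPM. For the large-conductance calcium-activated channel, the auxiliary subunits Kcnmb2 at 161 TPM and Kcnmb4 at 60.8 TPM lay well above the pore-forming subunit Kcnma1 at 2.17 TPM (30.9% of the implied depth). The small-conductance channel Kcnn1 stood at 14.8 TPM. Channels with a pair of pore domains were low, with Kcnk1 highest at 8.53 TPM and 6 of 14 (42.9%) detected.

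Calcium channel subunits were detected in 19 of 26 cases (73.1%, beside 57.1% of all symbols). The beta subunit Cacnb3 stood at 178 TPM (36.4% of the implied depth), Cacng7 at 107 TPM and Cacng4 at 52.5 TPM. Among the pore-forming subunits the T-type Cacna1h at 52.0 TPM, the R-type Cacna1e at 41.3 TPM and the N-type Cacna1b at 31.6 TPM were the highest. All 4 HCN pacemaker channels were detected, with Hcn4 at 24.4 TPM, Hcn3 at 18.8 TPM and Hcn2 at 4.49 TPM. HCN channels open on hyperpolarisation and set the resting potential of sensory neurons.

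Of the 28 TRP channels 14 were detected, led by the widely expressed Trpm7 at 44.9 TPM, Pkd2 at 42.2 TPM and Mcoln1 at 41.2 TPM. Trpv1 and Trpm8, the heat and cold channels of somatosensory neurons, were listed at 0. Among mechanosensitive and acid-sensing channels, Asic1 stood at 120 TPM and Tmem63b at 105 TPM, while Asic2 stood at 33.5 TPM and Piezo1 at 10.99 TPM. Piezo2, the touch channel of somatosensory neurons, stood at 1.35 TPM, and Tmc1, the hair cell transduction channel, at 0.480 TPM.

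Genes for glutamate release were present. The vesicular glutamate transporter Slc17a6 (VGLUT2) stood at 51.0 TPM and Slc17a7 (VGLUT1), which later marks auditory neurons, at 21.3 TPM. In contrast, Slc32a1, Gad1, Gad2 and Chat, the genes of GABA, glycine and acetylcholine neurons, all lay below 1 TPM. The monoamine transporter Slc18a2 stood at 22.3 TPM and the dopamine enzyme Th at 2.06 TPM. In all, 16 of 28 genes of this list (57.1%) were detected, the same share as over all symbols (57.1%).

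A larger share of the release list was detected than of the transmitter list. The transmitter list holds genes of several alternative transmitters, so these shares do not measure completeness. All 30 synaptic vesicle and release genes were detected at a median of 32.6 TPM, with Snap25 at 403 TPM (with 4.38% of the implied read depth), Syp at 273 TPM and Vamp2 at 140 TPM. Synaptotagmins were detected in 12 of 17 cases, and the highest were Syt11 at 242 TPM and Syt13 at 203 TPM, while Syt1, the calcium sensor of fast release, stood at 20.7 TPM and Syt2, which serves fast auditory synapses, at 40.5 TPM (17.8% of the implied depth). The dense-core vesicle genes were also all detected (16 of 16), led by Cpe at 193 TPM and Scg3 at 189 TPM. Peptides themselves were few: 14 of 38 neuropeptide genes were detected (8 at a threshold of 2 TPM) and 11 were listed at 0. Sst (somatostatin) was the highest at 29.1 TPM, followed by Penk at 11.5 TPM, Nmb at 8.57 TPM, Tac1 at 7.43 TPM, Npy at 6.44 TPM and Adcyap1 at 5.14 TPM. Calca (CGRP) stood at 1.90 TPM (44.1% of the implied depth).

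Adhesion molecules of axons were led by Alcam at 423 TPM, L1cam at 141 TPM, Ncam1 at 118 TPM and Cntn2 at 97.8 TPM, and 21 of 23 were detected. Of the classical cadherins, Cdh2 (N-cadherin) stood at 257 TPM and Cdh6 at 82.4 TPM, while Cdh1 (E-cadherin, of epithelia) stood at 11.2 TPM. Clustered protocadherins were detected in 49 of 58 cases, with Pcdhgc3 at 77.7 TPM. Members of that cluster share exons, and the deposited rows overlap, so reads cannot be placed on 1 member with certainty.

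Secreted signals were read next, to see which of the factors that the ganglion can receive were also transcribed in the dissected tissue. Mdk (midkine) at 1007 TPM and Ptn (pleiotrophin) at 363 TPM, heparin-binding growth factors of embryonic tissue, were the highest, with Igf2 at 285 TPM. Fgf10 stood at 96.5 TPM, Fgf3 at 13.1 TPM and Fgf8 at 13.1 TPM, signals that act in otic induction and neurogenesis. Fgf13, an intracellular relative that binds sodium channels, stood at 102 TPM with 0.668% of the implied read depth. WNT ligands were detected in 8 of 19 cases (42.1%, beside 57.1% of all symbols). Only Wnt7b, at 16.3 TPM, lay above 10 TPM. The secreted WNT inhibitors Sfrp1 and Draxin were higher, at 132 and 123 TPM. All 20 semaphorins and all 8 ephrins were detected, with Sema4c at 84.4 TPM and Efnb2 at 143 TPM in front.

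Levels of the ligands of 26 pairs were set beside those of a known receptor of each, a set of pairs drawn up after the levels were seen. In 25 pairs both genes reached 1 TPM, the receptor was higher in 16 and the ligand in 10. Bdnf stood at 13.3 TPM (7.89% of the implied depth) against Ntrk2 at 72.6 TPM, and Ntf3 (NT-3) at 11.1 TPM against Ntrk3 at 14.7 TPM (5.88% of the implied depth, so the order of this pair is uncertain). The ligands of the GDNF family were all low beside their receptors: Gdnf stood at 3.43 TPM against Gfra1 at 152 TPM, Nrtn at 3.59 TPM against Gfra2 at 30.6 TPM and Artn at 0.612 TPM against Gfra3 at 5.36 TPM. Cntf stood at 3.58 TPM against Cntfr at 117 TPM.

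Other pairs were nearly level by TPM. Nrg1, the neuregulin of axons that supports glia, stood at 66.6 TPM (30.1% of the implied depth) and its receptor Erbb3, which glia carry, at 63.7 TPM. Cxcl12 stood at 97.0 TPM (44.7% of the implied depth) and Cxcr4 at 104 TPM. Because of the depth shares of Nrg1 and Cxcl12, the balance and order of these pairs are uncertain. Jag1 stood at 30.02 TPM and Notch1 at 34.4 TPM. The order was the other way for some growth factors: Fgf10 lay above Fgfr2 (9.56 TPM), Igf2 above Igf1r (48.7 TPM), Vegfa (57.3 TPM) above Kdr (15.1 TPM), and Mdk and Ptn above Ptprz1 (18.7 TPM). A level of RNA in a bulk sample gives neither the cell that made it nor the amount of protein.

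**Figure D4:**
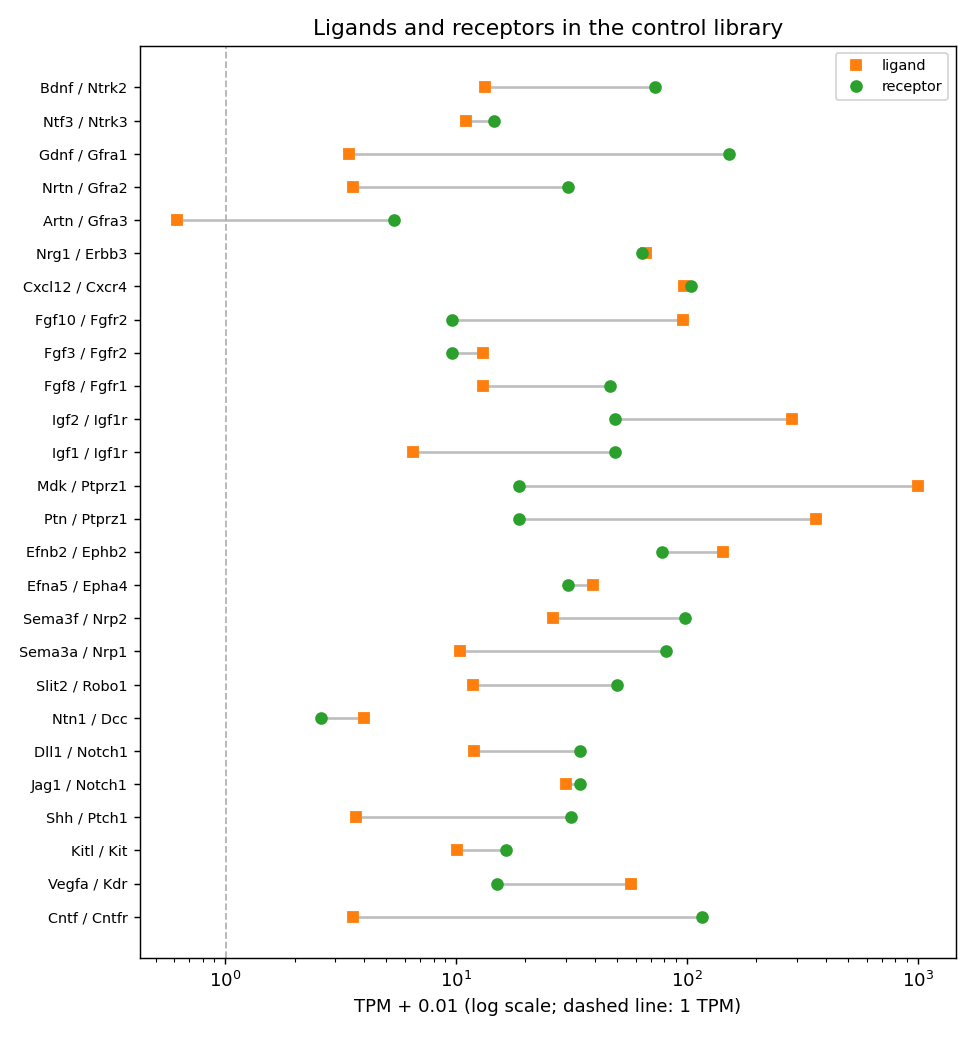
Levels (TPM + 0.01, log axis) of the ligands of 26 pairs (orange squares) and a receptor of each (green circles) in the control library, joined by a grey line, with 1 TPM as a dashed line. Artn, at 0.612 TPM, is the ligand left of the line, and the receptor lies to the right of the ligand in 16 of 26 pairs.

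The tissue held genes of dividing cells as well as of neurons that had left the cycle. All 30 proliferation genes were detected at a median of 91.8 TPM, with Cdk4 at 821 TPM, Ccnd1 at 463 TPM, Pcna at 361 TPM, Top2a at 264 TPM and Mki67 at 123 TPM. Cdkn1c (p57), an inhibitor of cyclin-dependent kinases, stood at 485 TPM, Cdkn1b (p27) at 115 TPM and Cdkn2d at 102 TPM. Cdkn2a was listed at 0. All 20 Notch ligands and targets were detected, and the highest was Hes6, a neuronal HES factor, at 258 TPM, above the Notch target Hes1 at 29.1 TPM. Of 27 genes of the BCL2 family and cell death 25 were detected, with Bax at 264 TPM and Mcl1 at 150 TPM. Which cells divided, and which held these transcripts, cannot be read from a bulk library.

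Markers of other cells were then examined against those of the ganglion neurons, whose 7 defining markers summed to 4287 TPM. Glia and neural crest had all 6 defining markers above 10 TPM, a sum of 548 TPM: among them Fabp7 stood at 240 TPM, Sox10 at 160 TPM, Erbb3 at 63.7 TPM and Foxd3 at 26.5 TPM. Otic epithelium had all 6 markers between 5.99 and 128 TPM, a sum of 287 TPM, with Oc90, a protein of the otoconia, at 128 TPM, Epcam at 87.8 TPM, Lmx1a at 36.5 TPM, Pax2 at 14.4 TPM, Hmx3 at 13.4 TPM and Dlx5 at 5.99 TPM. Otol1, another protein of the otoconia, stood at 88.4 TPM. Mesenchyme had all 5 markers between 11.7 and 103 TPM, a sum of 176 TPM, led by Col3a1 at 103 TPM. RNA of the otic wall, glia and mesenchyme was therefore present in a library labelled as CVG neurons.

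Blood was present at a high level: the 4 defining erythroid markers summed to 4583 TPM, above the sum of the neuronal markers. The embryonic globins Hbb-y at 2850 TPM, Hba-x at 1425 TPM and Hbb-bh1 at 1245 TPM, with Hba-a1 at 1711 TPM, are made by circulating primitive red cells, and the list of 10 haemoglobin genes held 0.760% of all TPM. Rows of Hba-a1 and Hba-a2 overlap, so the split between them is uncertain. Endothelium had 4 of 4 markers, between 3.84 TPM (Tek) and 17.6 TPM (Cdh5), and macrophages 3 of 4, the highest C1qa at 7.04 TPM.

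Some lists held 1 high member beside low ones. Of the cartilage markers Col2a1 stood at 319 TPM and Acan at 0.0428 TPM. COL2A1 is also made by otic epithelium and mesenchyme at this stage. The muscle factors Myod1 at 0.163 TPM, Myf5 at 0.172 TPM and Myog at 0.899 TPM all lay below 1 TPM. Of the surface ectoderm markers Krt18 stood at 50.2 TPM, Krt8 at 34.9 TPM and Cdh1 at 11.2 TPM, which the otic epithelium shares, while the epidermal factor Trp63 stood at 0.159 TPM. Hair cells are not yet formed at this age, and Atoh1 stood at 0.191 TPM with Gfi1 listed at 0, while Myo7a stood at 17.1 TPM.

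Neural tissue of the adjoining hindbrain was low by its markers: of 5 defining genes only Lhx1, at 3.05 TPM, reached 1 TPM, and Sox1 at 0.656 TPM, Pax6 at 0.641 TPM, Olig3 at 0.447 TPM and Olig2 at 0.205 TPM did not. Of the wider list of 49 neural tube genes 16 (32.7%) were detected, against 57.1% of all symbols. Among them were Irx3 and Zic1 (24.8 TPM), which other tissues of the head also express. Markers of other cranial ganglia were also read. Phox2a, a factor of visceral sensory neurons such as those of the neighbouring geniculate ganglion, stood at 5.94 TPM, while the motor neuron genes Mnx1 at 0.0766 TPM and Chat at 0.136 TPM were below 1 TPM. Of the somatosensory list 18 of 20 genes (90.0%) were detected, beside 57.1% of all symbols, at a median of 5.58 TPM. Only 8 of the 20 reached 10 TPM, and 1 was listed at 0. Higher members of the list included P2rx3 at 291 TPM, Hmx1 at 107 TPM, Tlx3 at 101 TPM, Scn9a at 66.8 TPM and Prdm12 at 22.7 TPM. Runx1, a factor of pain neurons, stood at 6.08 TPM. Which ganglion these transcripts came from was not tested.

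**Figure D5:**
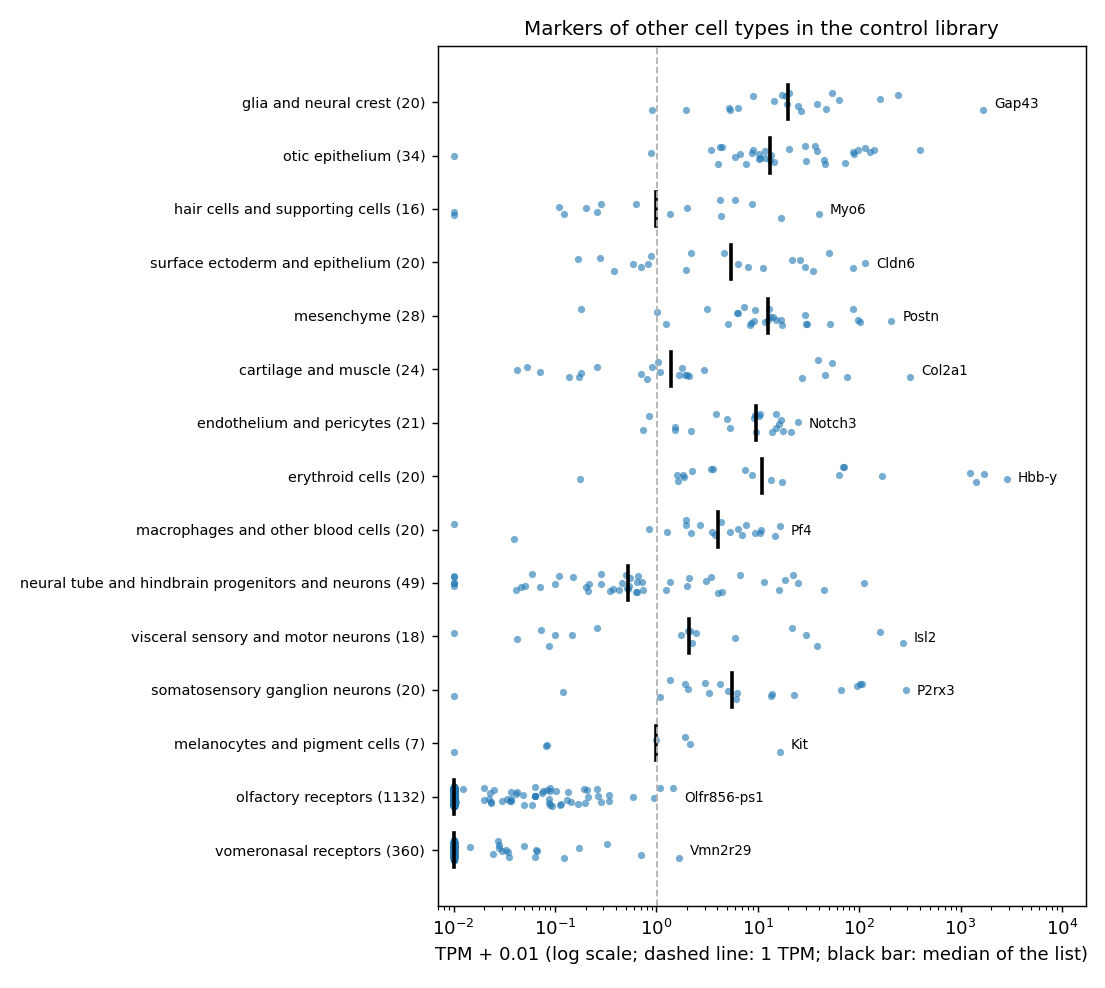
Level (TPM + 0.01, log axis) of each gene of 13 lists of other cell types and of the olfactory and vomeronasal receptor families in the control library, with the number of genes found in brackets, the highest gene named in most rows, the median as a black bar and 1 TPM as a dashed line. Glia, otic epithelium, mesenchyme and erythroid cells have medians above 10 TPM, while the median of both receptor families is 0. The gene named in the glia row, Gap43, also encodes a protein of growth cones.

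Families that belong to tissues outside the ear were low. Of 1132 olfactory receptor genes 2 reached 1 TPM (0.177%), the higher being Olfr856-ps1 at 1.45 TPM, and of 360 vomeronasal receptors 1 did, Vmn2r29 at 1.66 TPM (29.3% of the implied depth). None of 35 bitter taste receptors and none of 43 beta-defensins reached 1 TPM, the highest being Tas2r108 at 0.255 TPM and Defb47 at 0.690 TPM. These 4 families were chosen after the levels were seen. Their low levels are a description, since the choice fixed them.

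Promoter composition followed the level over the whole library. The median number of CpG in the 250 bases before the start was 2 for genes listed at 0, 5 for those up to 1 TPM, 11 from 1 to 10 TPM, 17 from 10 to 100 TPM, 18 from 100 to 1000 TPM and 19 at 1000 TPM or more. A CpG ratio (observed over expected) of at least 0.6 was found in 4.53% of promoters of genes listed at 0 and in 83.5% of those at 1000 TPM or more. The motif TATAAA, searched on the gene's strand from 40 to 20 bases before the start, had no such steady order: it was in 5.73% of promoters of genes listed at 0, 0.490% of those at 10 to 100 TPM and 5.06% of those at 1000 TPM or more, against 2.60% of all. The bHLH motif CAGATG, searched on both strands of the 250 bases, was in 2 of the 6 marker promoters that matched, and in 12.7% of all. The promoters of Neurod1, Isl1, Pou4f1 and Tubb3 shown above did not hold it. TAATTA, searched in the same way, was in 0 of the 6 and in 4.42% of all. CAGCTG was in 12.2% of all and was not counted over the markers. The classes of level also differed in gene type and family. Protein-coding genes were 67.8% of the symbols listed at 0 and 99.1% of those at 1000 TPM or more. Of 1132 olfactory receptors 1079 were listed at 0, and the 941 olfactory receptor promoters matched had a median of 1 CpG. What these differences add to the CpG order was not tested. Genes are not replicates, and these values describe this library.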

How the data were processed

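Per the labels' protocols, total RNA of frozen ganglia was made into strand-specific libraries. StringTie, HISAT2, SAMtools, Trimmomatic and FastQC were used on build mm10, per the submitters' processing notes. Versions and the annotation are not given in the sources used here. Per gene, the authors' deposited table gives TPM and FPKM, computed by the authors and proportional to each other, and coverage (mean read depth), per the file headers. It holds no read counts. TPM was used as deposited, and 25566 rows were summed by symbol. Depth was read from the ratio of deposited coverage to FPKM, which was 16.6 in 60.4% of rows above 0.1 FPKM (relative tolerance 0.001). Symbols were matched to RefSeq (25041, 99.2%) and GENCODE M21 (24366) for gene types, and promoters came from RefSeq. Python 3.11.15 and pandas 2.3.3 were used, and the listing and ranking steps were tested on simulated data. Members and lists were chosen with earlier results of these data known, and 5 lists and the ligand pairs after the levels were seen. Named genes were drawn from the 6 highest and 3 lowest detected of each list, every member of families of up to 12, defining genes below 1 TPM, the 30 highest listed factors and the 30 highest genes of the library. Genes named otherwise were chosen after their values were seen. Alternatives were other thresholds, FPKM, the highest row per symbol, removal of overlapping genes and rescaling. Mitochondrial genes and the 3 mutant libraries were not analysed here. Some genes of the lists are not reported here by name.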

Additional observations from a re-analysis of the deposited data

How the results depend on the processing

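No paired analysis was possible because there was 1 library. Each count, median and rank was recomputed under alternatives, and 928 of 980 values stayed within 1.5-fold. Of the 52 others, those that bear on printed values were these. Detected cartilage and muscle genes went from 14 to 8 at a threshold of 2 TPM and to 7 at 1 FPKM. Detected neural tube genes went from 16 to 26 at a threshold of 0.5 TPM, and visceral and motor genes from 11 to 6 at 1 FPKM. The rank of Neurod1 went from 193 to 126 when ribosomal, haemoglobin and 45S genes were removed, because fewer genes were ranked. The rank of Ntrk3 went from 9078 to 14446 by mean read depth, and the cause was not tested. With 1 library, no spread limits any of these values. Among the gene families, a threshold of 2 TPM left 1 PAX gene (from 2), 3 GABA-A subunits (from 5), 2 serotonin receptors (from 4), 8 neuropeptides (from 14) and 5 keratins (from 8). At 0.5 TPM there were 4 PAX genes and 9 GABA-A subunits. At 1 FPKM there were 1 PAX gene, 8 proneural bHLH factors (from 13), 3 GABA-A subunits, 2 P2X receptors (from 4), 1 serotonin receptor, 7 neuropeptides, 31 clustered protocadherins (from 49), 5 WNT ligands (from 8) and 5 keratins. Without genes that overlap another on the same strand, 1 PAX gene was detected and the median of plexins and neuropilins was 30.1 TPM (from 52.8).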

Other observations

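Among 30 imprinted genes, a list drawn up after the levels were seen, 27 were detected. Nnat, a small membrane protein of developing neurons, stood at 2735 TPM and rank 18 of all symbols, Mest at 747 TPM, H19 at 732 TPM, Grb10 at 495 TPM and Cdkn1c at 485 TPM. Gnas stood at 628 TPM with 9.54% of the implied read depth.

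Retinoic acid genes were all detected (19 of 19, median 16.3 TPM), with the binding protein Crabp2 at 154 TPM. The enzymes that make retinoic acid and those that break it down were both present, with Aldh1a3 at 17.6 TPM, Cyp26c1 at 19.7 TPM and Cyp26a1 at 16.3 TPM.

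Xist, the RNA of the inactive X chromosome of females, stood at 128 TPM, and 4 of 5 listed Y-linked genes were detected as well, with Eif2s3y at 34.6 TPM, Ddx3y at 20.2 TPM, Kdm5d at 16.9 TPM and Uty at 11.5 TPM, while Zfy1 was listed at 0. Neither the number nor the sex of the embryos is given by the labels.

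The motif TATAAA was in 13 of the 36 keratin promoters matched (36.1%), on the gene's strand from 40 to 20 bases before the start, against 2.60% of all promoters. Keratins were detected in 8 of 55 cases, and Krt18 at 50.2 TPM and Krt8 at 34.9 TPM were the highest.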
